A study of Mus musculus with 4 samples.

Results

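The genes described are the 10 subunits of protein phosphatase 2A (PP2A) that make up the holoenzymes to which cyclin G is tied: Ppp2ca and Ppp2cb (catalytic C subunit), Ppp2r1a and Ppp2r1b (scaffold A subunit), Ppp2r2a (regulatory B subunit) and Ppp2r5a, Ppp2r5b, Ppp2r5c, Ppp2r5d and Ppp2r5e (the regulatory B′ family). Members were taken by the gene name that the array carries, and every gene probe with such a name was kept. This gave 22 of the 41174 gene probes on the array. The transcripts were measured in mouse embryonic fibroblasts (MEFs), connective-tissue cells grown from embryos, by 4 Agilent microarrays of 2 colours. MEFs lacking cyclin G1 (G1KO, CycG1-/-) were compared with CycG1+/+ wild-type (WT) MEFs, and MEFs lacking cyclin G2 (G2KO, CycG2-/-) with CycG2+/+ WT MEFs. Each comparison was made on 1 array with the knockout RNA in the dye Cy5 and on a second array with the dyes exchanged, so it rests on 1 knockout and 1 WT RNA sample. The cells were untreated and in logarithmic growth.

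The strain is given as C57BL/6J for all 4 RNAs, although the source names of the G2KO pair read C57BL/7J. The CycG1 allele lacked all protein-coding exons. The labels do not say how many embryos were pooled or how often the cells had been passaged. The ± values are technical, being the SD of the 2 arrays with exchanged dyes, and with 1 sample per genotype no test and no p-value was possible. A difference was counted only where it had the same direction on each array, at 2-fold (a log2 ratio of at least 1 in size) or at 1.5-fold. By that rule 5.79% of all probes tested differed by 2-fold in G1KO, and 6.37% did so for G2KO. At 1.5-fold the shares were 13.1% and 14.6%.

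PP2A is a serine/threonine phosphatase whose core is a catalytic C subunit held by a scaffold A subunit. A regulatory subunit of the B, B′, B″ or striatin type joins this core and directs it to its substrates, and the isoforms of A and of C are encoded by separate genes. Cyclin G1 and cyclin G2 bind B′ subunits, the best known partner being B′γ, the product of Ppp2r5c. PP2A with B′ subunits removes phosphates from the DNA damage response proteins MDM2, p53 and CHK2.

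The knockout of the targeted genes was read first. Ccng1 was lower in G1KO, with a log2 ratio of -6.67 ± 0.13 at the brighter probe and -4.96 ± 0.08 at the other. Ccng2 was not lower in the RNA labelled G2KO, where its log2 ratio was 0.09 ± 0.27, and whether its probe lies in the deleted part of the gene was not analysed here. If the probe lies outside that part it checks nothing, and the sample is therefore called the RNA labelled G2KO. Xist was higher in both knockout RNAs (log2 ratios of 7.54 ± 0.43 and 7.24 ± 0.46 at its brightest probe), and Eif2s3y of the Y chromosome was well above background in both WT RNAs but in neither knockout RNA, so sex and genotype cannot be told apart. All 10 fibroblast marker genes were detected, and 11 of their 22 probes were lower by 2-fold in the RNA labelled G2KO, Col1a1, Col3a1 and Pdgfra among them. In the same RNA the neural markers Sox2, Foxa2 and En2 were higher, by 5.59, 6.10 and 7.02 on the log2 scale, while Tubb3, the other neural marker, was lower at -0.73 ± 0.16. In an RNA sample of a whole culture, fewer cells of a type and less RNA per cell cannot be told apart.

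The members whose ratios were furthest from 0 at their brightest probe were Ppp2r5b in the G1KO comparison and Ppp2r5a in that of the RNA labelled G2KO. The 250 bases before the annotated transcription start of each are shown for these 2, from RefSeq on build GRCm38.p6, both on the minus strand and written 5′ to 3′ toward the start. Capitals mark the motifs GGGCGG (the GC box) and CCAAT (the CCAAT box), read on both strands, so that the Ppp2r5a matches appear as their complements. Neither window holds TATAAA (the TATA box), the E-box CACGTG or a p53 half-site.
Ppp2r5b (chr19:6235841-6236090): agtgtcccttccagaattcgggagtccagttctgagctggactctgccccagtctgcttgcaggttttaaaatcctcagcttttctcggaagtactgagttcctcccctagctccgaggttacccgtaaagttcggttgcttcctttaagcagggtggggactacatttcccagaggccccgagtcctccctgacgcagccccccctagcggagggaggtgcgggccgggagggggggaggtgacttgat
Ppp2r5a (chr1:191397042-191397291): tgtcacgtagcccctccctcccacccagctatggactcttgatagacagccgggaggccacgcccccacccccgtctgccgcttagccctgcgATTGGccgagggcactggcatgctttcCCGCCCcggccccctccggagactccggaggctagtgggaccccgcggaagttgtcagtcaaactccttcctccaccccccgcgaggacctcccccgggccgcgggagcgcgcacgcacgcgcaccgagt
The Ppp2r5a window holds 1 GC box and 1 CCAAT box, while the Ppp2r5b window holds neither in these letters. Among 32851 mouse promoter windows of the same length, 32.7% hold the GC box, 33.8% the CCAAT box, 12.4% the TATA box, 6.02% the E-box and 7.13% a p53 half-site. The G and C content was 58.4% for Ppp2r5b and 70.4% for Ppp2r5a, against a median of 52.4% over all windows. The table held a promoter for 7 of the 10 genes, and among these each of Ppp2ca, Ppp2r1a, Ppp2r1b, Ppp2r5a, Ppp2r5c and Ppp2r5d had at least 1 promoter with a GC box. A match is a string of letters and was not tested as a binding site.

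All 22 member probes were bright enough to be tested in both comparisons. In G1KO, 1 of the 22 differed by 2-fold, the Ppp2r5b probe, and it was lower; 3.8% of all probes tested were lower by 2-fold there. In the RNA labelled G2KO none of the 22 differed by 2-fold, and at 1.5-fold the counts were again 1 and 0. The median log2 ratio of the member probes was 0.03 in G1KO and -0.00 for the RNA labelled G2KO, against -0.00 and -0.01 over all probes tested. Without Ppp2r5b the member probes spanned -0.43 to 0.35 in G1KO and -0.48 to 0.43 for the RNA labelled G2KO. The middle 50% of all probes lay between -0.22 and 0.19 in the former comparison and between -0.25 and 0.22 in the latter, and 7 and 16 of the member probes lay within it. Of the other member probes in G1KO, 9 lay above that range and 6 below.

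**Figure D1:**
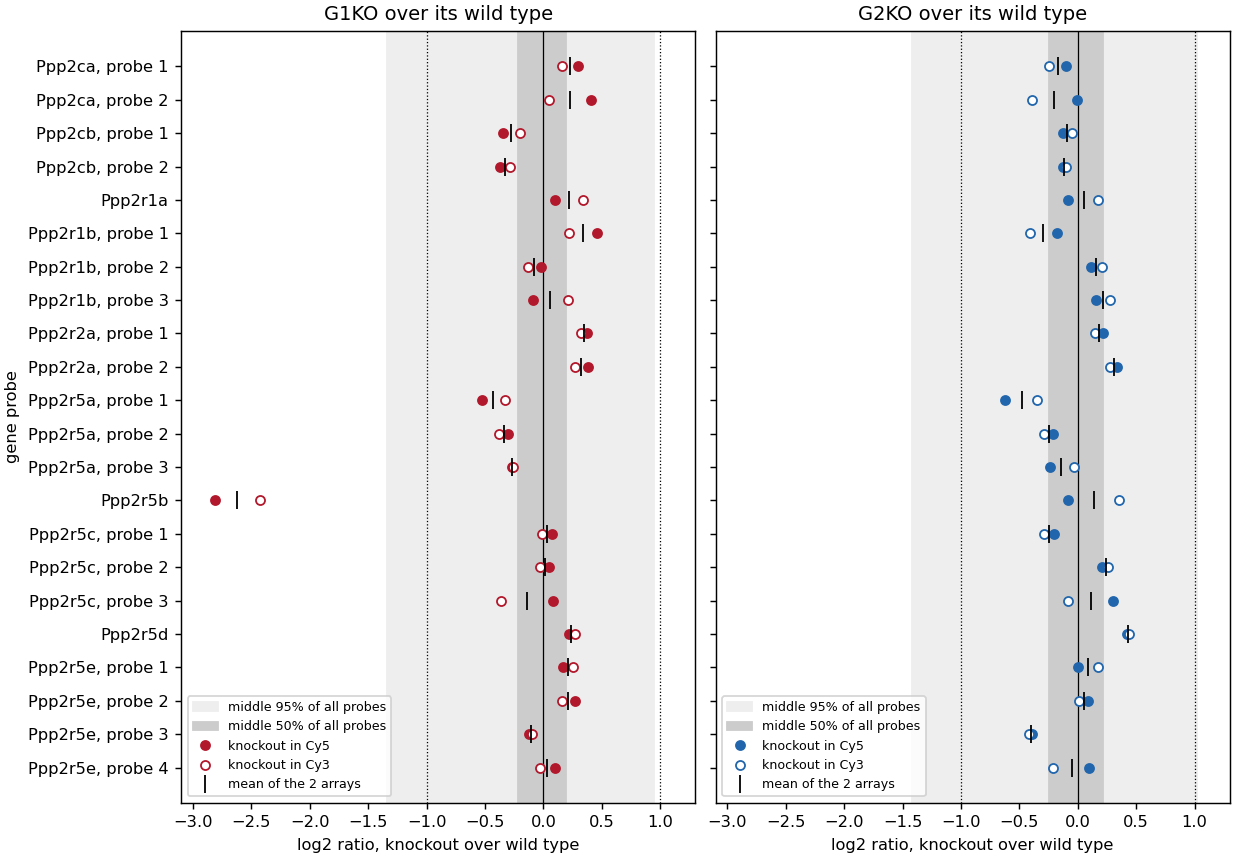
Log2 ratio of knockout over WT for each of the 22 probes of the 10 PP2A subunit genes, in the G1KO pair (left) and the G2KO pair (right). Filled and open points are the arrays with the knockout RNA in Cy5 and in Cy3, bars are their mean, grey bands hold the middle 50% and the middle 95% of all probes tested, and dotted lines mark 2-fold. Ppp2r5b in G1KO lies at -2.81 and -2.43, and the other points lie within 2-fold.

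The catalytic subunits showed opposite signs in G1KO. Ppp2ca encodes the α isoform, the more abundant catalytic subunit in most tissues. Its brighter probe, at 51965821 to 51965880 on chromosome 11 (plus strand, array design on build mm8), gave G1KO ratios of 0.30 with the knockout in Cy5 and 0.16 with it in Cy3, and its other probe, at 51964368 to 51964427, gave 0.41 and 0.05. All 4 values were above 0, and both probes averaged 0.23 on the log2 scale, a 1.17-fold difference. In the RNA labelled G2KO the same probes gave -0.10 and -0.25, and -0.01 and -0.39, so all 4 values were below 0. Ppp2cb encodes the β isoform, which is nearly identical in protein sequence. Its brighter probe, which spans 35065919 to 35076614 on chromosome 8 (10696 bases of the genome in the design), gave -0.35 and -0.20 in G1KO and -0.13 and -0.05 for the RNA labelled G2KO. The other Ppp2cb probe, at 35076738 to 35076797, gave -0.37 and -0.29, then -0.13 and -0.10. Ppp2cb was thus below its WT on all 4 arrays at both probes, and its G1KO means of -0.28 ± 0.11 and -0.33 ± 0.05 corresponded to less than 1.5-fold.

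Across the 4 RNAs the catalytic genes did not keep 1 order. The levels are log2 signals per channel, normalised between arrays and compared between RNAs at the same probe. That of the brighter Ppp2ca probe was 13.29 ± 0.09 in the WT of the G1KO pair, 13.52 ± 0.01 in G1KO, 13.57 ± 0.10 in the WT of the G2KO pair and 13.39 ± 0.00 in the RNA labelled G2KO. The knockout RNAs lay between the WT RNAs, which differed by 0.27 ± 0.01. The brighter Ppp2cb probe stood at 12.48 ± 0.10, 12.20 ± 0.01, 11.98 ± 0.07 and 11.89 ± 0.01 in the same order. Here both RNAs of the G1KO pair lay above both RNAs of the G2KO pair, and the difference between the WT RNAs (-0.50 ± 0.03) was larger than either difference between knockout and WT.

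The scaffold subunits gave small differences whose sign depended on the probe. Ppp2r1a, the Aα scaffold and the main form in most cells, had 1 probe, which spans 20666428 to 20667321 on chromosome 17. Its log2 ratios were 0.10 and 0.34 in G1KO and -0.08 and 0.17 for the RNA labelled G2KO, so the arrays of the latter pair had opposite signs. Ppp2r1b, the Aβ scaffold, was read by 3 probes on chromosome 9. The brightest, at 50632825 to 50632884, gave 0.46 and 0.22 in G1KO and -0.18 and -0.41 for the RNA labelled G2KO. The probe that spans 50643941 to 50644938, designed on another transcript, had the reverse signs, with -0.02 and -0.13 in G1KO and 0.11 and 0.21 for the RNA labelled G2KO. The probe at 50619968 to 50620027 gave -0.09 and 0.21, then 0.16 and 0.28. With the scanner's own ratio in place of the loess ratio the means of this dim probe went from 0.06 to 0.37 in G1KO and from 0.22 to 0.65 for the RNA labelled G2KO. The 3 Ppp2r1b probes therefore disagree in direction in both comparisons. The probes other than the brightest were both dim, with levels between 6.72 and 7.10 in the RNAs. The level of the brightest probe was 10.16 ± 0.01, 10.49 ± 0.18, 10.82 ± 0.12 and 10.52 ± 0.05 in the order WT of the G1KO pair, G1KO, WT of the G2KO pair and the RNA labelled G2KO. The WT RNAs were the extremes, with 0.67 ± 0.13 between them, and the knockout RNAs did not differ beyond their spread.

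Ppp2r2a, the Bα regulatory subunit that directs PP2A to mitotic substrates, was higher than its WT on all 4 arrays at both of its probes. The brighter probe, at 65970133 to 65970192 on chromosome 14 (minus strand), gave 0.37 and 0.32 in G1KO and 0.22 and 0.15 for the RNA labelled G2KO. The other, at 65976436 to 65976495, gave 0.38 and 0.27, then 0.34 and 0.28. Both knockout RNAs stood above both WT RNAs in level at each probe, with 12.71 ± 0.01 and 12.62 ± 0.08 against 12.36 ± 0.03 and 12.44 ± 0.03 at the brighter one. The differences were small in size, 0.35 ± 0.04 and 0.18 ± 0.05 at that probe, and the WT RNAs differed there by 0.08 ± 0.06.

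Among the B′ genes, Ppp2r5b stood apart in the G1KO comparison. Ppp2r5b encodes the B′β subunit, best known from brain. Its only probe lies at 6227820 to 6227879 on the minus strand of chromosome 19 (build mm8). Its log2 ratio was -2.81 with the G1KO RNA in Cy5 and -2.43 with it in Cy3, a mean of -2.62 ± 0.27 or 6.15-fold lower than WT. The raw signals behind these values were 4998 in G1KO (Cy5) against 12666 in WT (Cy3) on the first array, and 2031 in G1KO (Cy3) against 27486 in WT (Cy5) on the second. In the RNA labelled G2KO the ratios were -0.08 and 0.35, with opposite signs, and their mean of 0.14 ± 0.31 was smaller than its spread.

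The level of Ppp2r5b in each RNA showed which sample the ratio rests on. It was 14.14 ± 0.21 in the WT of the G1KO pair, 11.52 ± 0.05 in G1KO, 11.82 ± 0.15 in the WT of the G2KO pair and 11.95 ± 0.16 in the RNA labelled G2KO. The WT of the G1KO pair was therefore the high sample, and the other 3 RNAs lay within 0.44 of each other. Of those 3, the WT of the G2KO pair and the RNA labelled G2KO did not differ beyond their spread. Compared within a dye, the WT of the G2KO pair was lower than the WT of the G1KO pair, with log2 differences of -2.28 in Cy5 and -2.37 in Cy3 and a mean of -2.32 ± 0.07. Ppp2r5b was the 1 member of the 22 that differed by 2-fold between the WT RNAs, where 11.1% of all probes tested did. Set against the WT of the other pair instead of its own, G1KO differed in Ppp2r5b by -0.23 in Cy5 and -0.36 in Cy3, and the count of members past 2-fold went from 1 to 0 (background 7.63%). The RNA labelled G2KO, set against the WT of the G1KO pair, was lower in Ppp2r5b by 2-fold, the 1 member of 21 tested (background 11.7%).

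**Figure D2:**
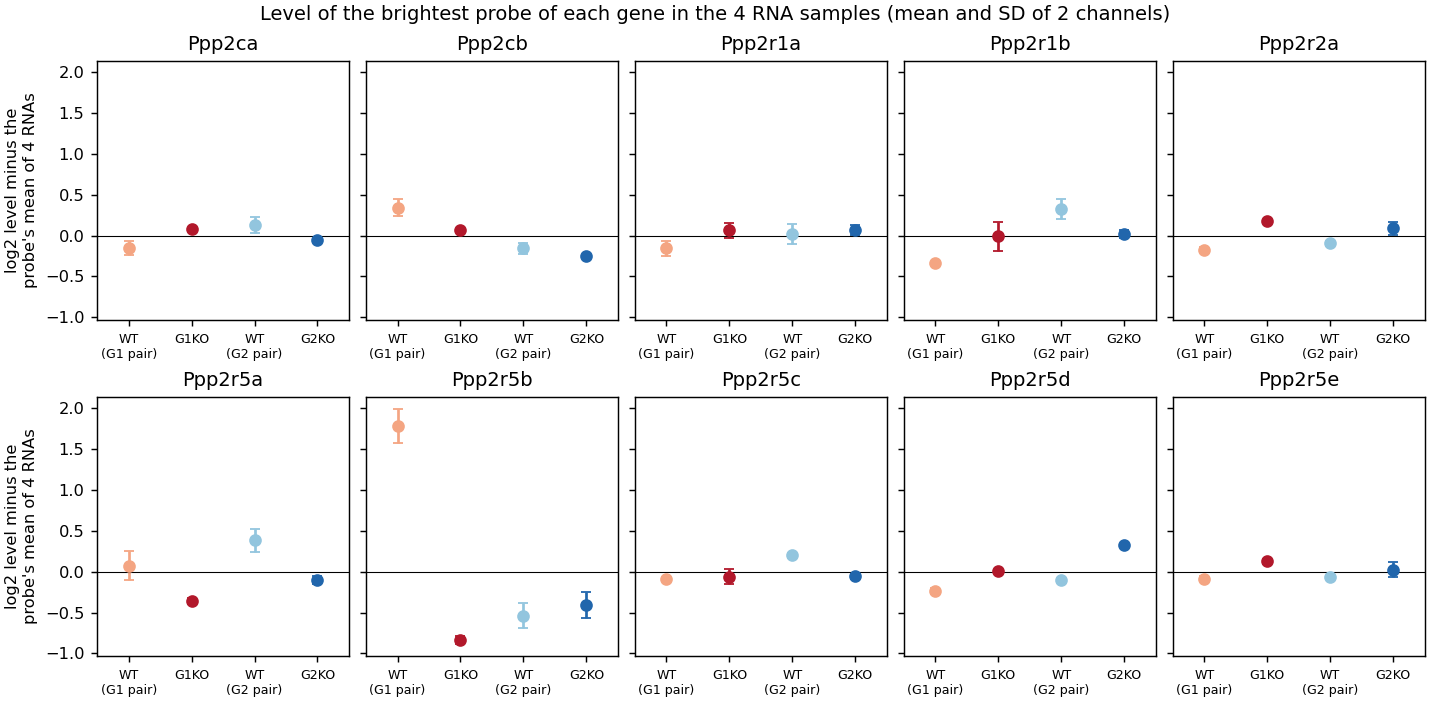
Normalised log2 level of the brightest probe of each of the 10 genes in the 4 RNA samples, minus the mean of that probe over the 4. Points are means and bars the SD of the Cy5 and Cy3 channels (2 values). In Ppp2r5b the WT of the G1KO pair stands above the other 3 RNAs, while in the other 9 genes the 4 RNAs lie within 0.74 of each other.

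Markers of other cell types also differed between these samples. The 3 mesothelial markers Msln, Upk3b and Wt1 were all lower in G1KO than in its WT, with log2 ratios of -2.79, -4.25 and -3.04. Their summed level (linear, over the 3 probes) was 144826 to 195395 in the WT of the G1KO pair, 17507 to 24941 in G1KO, 1254 to 1382 in the WT of the G2KO pair and 3566 to 3892 in the RNA labelled G2KO. In the RNAs of the G2KO pair Upk3b and Wt1 were not above background. The germ cell marker Ddx4 was lower in G1KO by 5.93 on the log2 scale, from a level of 14.30 in its WT, whereas Dazl was not above background in any RNA on both arrays. The epithelial marker Krt18 was high in both RNAs of the G1KO pair, at 14.96 in WT and 14.88 in G1KO. In the G2KO pair Krt18 stood at 6.58 in WT and 6.30 in the RNA labelled G2KO. Of the other epithelial markers, Cdh1 gave -0.32 ± 0.09 in G1KO and Epcam was not above background in any RNA. The WT of the G1KO pair was the highest of the RNAs both in the mesothelial sum and in Ppp2r5b. G1KO had a higher mesothelial sum than the WT of the G2KO pair in both channels, and differed from it in Ppp2r5b by -0.30 ± 0.09. The part of these cell types in the Ppp2r5b ratio was not tested.

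Genes next to Ppp2r5b on chromosome 19 did not share its ratio. Within 100 kb of its probe lay 9 probes of other genes, of which 7 were tested in G1KO and 0 differed by 2-fold. The nearest tested, Gpha2 (a glycoprotein hormone subunit), begins 0.781 kb from it and gave -0.30 ± 0.26. The lowest was a probe of 1810013C15Rik, 33.9 kb away, at -0.81 ± 0.04, and the other probe of that gene gave -0.32 ± 0.15. Ehd1 (a membrane trafficking protein) and Cdc42bpg (a kinase) gave -0.51 ± 0.24 and -0.47 ± 0.19. Both probes of Arl2 lay near 0, at -0.08 ± 0.11 and -0.09 ± 0.06. All 7 were below 0, and Ppp2r5b was the single probe of the region past 2-fold. By distance over the 4 array ratios, the probes with a pattern nearest to that of Ppp2r5b among 21126 compared were of Sh3tc1 (distance 0.30 in log2 units, means -2.69 and 0.23), Scrn1 (0.46, means -2.55 and 0.42) and Gm2a (0.54, means -2.54 and 0.26). Their levels did not all follow 1 order. For Sh3tc1 and Gm2a the WT of the G1KO pair was the highest RNA, as for Ppp2r5b, at 10.56 and 10.42. In the WT of the G2KO pair Sh3tc1 and Gm2a stood at 6.52 and 7.55. Scrn1 was highest in the RNA labelled G2KO, at 12.82. It stood at 12.41 in the WT of the G1KO pair and 12.39 in that of the G2KO pair.

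**Figure D3:**
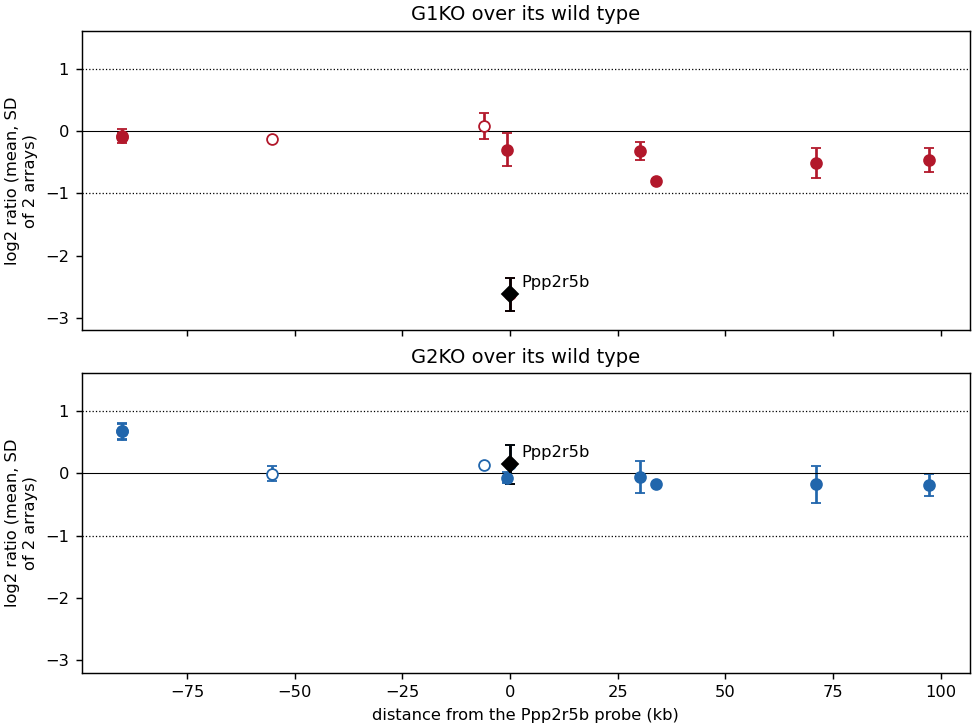
Log2 ratio of knockout over WT (mean and SD of 2 arrays) for Ppp2r5b (black) and the 9 probes of other genes within 100 kb, by distance from the Ppp2r5b probe on build mm8. Open points were too dim to be tested. In G1KO the neighbours lie between -0.81 and 0.08, against -2.62 for Ppp2r5b.

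Ppp2r5a, the B′α subunit, was below WT at each of its 3 probes on every array of both comparisons, as Ppp2cb was at its 2 probes. Its brightest probe, at 193052631 to 193052690 on chromosome 1 (minus strand), gave -0.53 and -0.33 in G1KO and -0.62 and -0.35 for the RNA labelled G2KO. The probe that spans 193055273 to 193055415 gave -0.30 and -0.38, then -0.21 and -0.29. The probe at 193059601 to 193059660 gave -0.27 and -0.26, then -0.24 and -0.03. Every value was negative, and no probe reached 1.5-fold on both arrays. In level, both knockout RNAs lay below both WT RNAs at each of the 3 probes. At the brightest the levels were 13.08 ± 0.18 in the WT of the G1KO pair, 12.65 ± 0.04 in G1KO, 13.39 ± 0.14 in the WT of the G2KO pair and 12.91 ± 0.05 in the RNA labelled G2KO. Against the WT of the other pair G1KO differed by -0.62 in Cy5 and -0.87 in Cy3 at that probe, which was the 1 member past 1.5-fold in that comparison (background 18.9%). The genes most like Ppp2r5a over the 4 ratios were Acat1 (distance 0.09), Tor1aip2 (0.09) and Arhgef12 (0.10), of 21124 probes compared.

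Ppp2r5d, the B′δ subunit, had the opposite pattern. Its 1 probe, at 46146183 to 46146216 on chromosome 17 (minus strand), gave 0.22 and 0.27 in G1KO and 0.42 and 0.44 for the RNA labelled G2KO. All 4 values were above 0, and the means of 0.24 ± 0.04 and 0.43 ± 0.02 were larger than the spread between arrays. In level the RNA labelled G2KO was the highest at 12.74 ± 0.01, followed by G1KO at 12.41 ± 0.00, the WT of the G2KO pair at 12.31 ± 0.01 and the WT of the G1KO pair at 12.17 ± 0.04. No neighbours in this order overlapped within 1 SD, although the WT RNAs themselves differed by 0.14 ± 0.03.

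Ppp2r5c, whose product B′γ is the cyclin G partner named above, was read by 3 probes on chromosome 12 (plus strand). The brightest, at 111030289 to 111030348, gave 0.07 and -0.01 in G1KO and -0.20 and -0.29 for the RNA labelled G2KO. The next, at 111018514 to 111018573, gave 0.05 and -0.03 in G1KO and, with the sign turned, 0.21 and 0.26 in the RNA labelled G2KO. The third, at 111018709 to 111018768, gave 0.08 and -0.36, then 0.30 and -0.08. In G1KO the arrays of each of the 3 probes had opposite signs. For the RNA labelled G2KO the brighter 2 probes differed from their WT by about the same amount in opposite directions, -0.25 ± 0.07 and 0.24 ± 0.04, so these probes give no single direction for the gene. The WT RNAs differed by 0.28 ± 0.06 at the brightest probe and by -0.24 ± 0.03 at the next.

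Ppp2r5e, the B′ε subunit, was read by 4 probes on chromosome 12 (minus strand). The brightest 2, at 76378540 to 76378599 and at 76371838 to 76371897, gave 0.17 and 0.25, and 0.27 and 0.16, in G1KO. They gave, in the RNA labelled G2KO, 0.00 and 0.17, and 0.09 and 0.01. The probe at 76434104 to 76434163 had the other sign, with -0.12 and -0.10 in G1KO and -0.39 and -0.42 for the RNA labelled G2KO. The last, at 76369389 to 76369448, was well above background in only 3 of 4 channels of each pair and gave 0.10 and -0.03, then 0.10 and -0.21. In G1KO the first pair of probes and the third thus differed in direction. For the RNA labelled G2KO the means of the first pair, 0.09 ± 0.12 and 0.05 ± 0.06, did not exceed their spread. The third probe was dimmer than the first pair, with levels of 7.45 to 8.07, and was designed on another transcript. Probes of Ppp2r1b and of Ppp2r5c also differed in direction, as given above.

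Counted by role, 5 of the 22 member probes were above WT on all 4 arrays and 6 were below, or 22.7% and 27.3%, against 16.4% and 17.1% of the 24150 probes tested in both comparisons. Those above were the 2 of Ppp2r2a, that of Ppp2r5d and the brightest 2 of Ppp2r5e, whose means in the RNA labelled G2KO did not exceed their spread. Those below were the 2 of Ppp2cb, the 3 of Ppp2r5a and 1 of Ppp2r5e. A further 4 of the 22 (18.2%, against 35.8% of all) had opposite signs in the 2 comparisons, namely the 2 of Ppp2ca and 2 of Ppp2r1b. The difference between the WT RNAs was larger than the G1KO difference at 12 of the 22 probes, and larger than that of the RNA labelled G2KO at 12 of 22. The median size was 0.20 between the WT RNAs, 0.23 in G1KO and 0.18 for the RNA labelled G2KO. These counts and medians were taken over the member probes only, and each knockout difference shares a WT RNA with the difference between the WT RNAs. Over all probes tested, 11.1% differed by 2-fold between the WT RNAs, against 5.79% in G1KO and 6.37% for the RNA labelled G2KO.

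The other genes of the PP2A pathway were read in 6 lists. Among 16 tested probes of further regulatory subunits, 0 differed by 2-fold in G1KO and 1 was higher in the RNA labelled G2KO, with list medians of -0.02 and 0.05. That gene was Ppp2r2b, which encodes the Bβ subunit known from neurons. Its brightest probe gave 2.58 and 3.00 in the RNA labelled G2KO, and since the WT of that pair was not well above background it is stated as at least 6.45-fold higher. A second probe, with the same limit, gave 0.83 and 0.96, or at least 1.75-fold. The remaining Ppp2r2b probes were not well above background in any RNA and so were not tested, with means of -0.04 and -0.08 in the RNA labelled G2KO. The level of the brightest probe was 9.22 in the WT of the G1KO pair, 8.53 in G1KO, 6.08 in the WT of the G2KO pair and 8.87 in the RNA labelled G2KO, so the WT of the G2KO pair was the low sample. Of the 4 neural markers, Sox2, Foxa2 and En2 were higher in the same RNA and Tubb3 was lower at -0.73, and their part in this difference was not tested. Their summed level over 4 probes was 33264 to 35396 in the RNA labelled G2KO and 1212 to 1225 in its WT, 7667 to 8448 in G1KO and 14371 to 16026 in its WT. In the G1KO pair Sox2 was not above background, En2 stood at 6.32 in WT and 6.25 in G1KO, and Foxa2 had the highest level of the list (13.71 in WT and 12.55 in G1KO). Ppp2r3a, a B″ subunit, had 5 tested probes between 0.00 and 0.91 in G1KO, 1 of which passed 1.5-fold, and between -0.51 and 0.10 in the RNA labelled G2KO.

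The assembly factors and methylation enzymes did not differ by 2-fold at any of 9 probes in either comparison, with medians of 0.05 and 0.14. Ppme1, which removes the methyl group from the catalytic subunit, gave 0.18 at each of its 3 probes in G1KO and 0.38 to 0.43 for the RNA labelled G2KO. Lcmt1, which adds that methyl group, gave 0.06 and 0.05, then 0.10 and 0.14.

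Of the inhibitors of PP2A and their kinase, 19 probes were tested, and 1 was lower by 2-fold in G1KO and 0 for the RNA labelled G2KO. The 1 was a probe of Anp32a, an inhibitor protein also called pp32, at -1.45 ± 0.13, while the brighter Anp32a probe gave -0.50 ± 0.05. The level of the former was 10.34 in the WT of the G1KO pair and 8.89, 8.68 and 9.24 in G1KO, the WT of the G2KO pair and the RNA labelled G2KO, so that at this probe the same WT sample was the high one as for Ppp2r5b. At the brighter probe the levels were 10.26, 9.76, 10.20 and 10.60 in the same order, and the RNA labelled G2KO was the highest. The median of the inhibitors was -0.00 in G1KO and 0.40 for the RNA labelled G2KO. It was taken over probes of 8 genes, 5 of the probes being of Mastl. The lowest value in the RNA labelled G2KO was that of Bod1, at -0.53 ± 0.09. Mastl, the Greatwall kinase that turns Ensa and Arpp19 into inhibitors of PP2A with B subunits at mitotic entry, gave 0.61 to 0.84 at its 5 probes in the RNA labelled G2KO and -0.10 to -0.00 in G1KO. Of these probes 3 passed 1.5-fold in the RNA labelled G2KO, where 6.28% of all probes tested were higher by that rule. At its brightest probe Mastl stood at 9.82 in the WT of the G2KO pair and 10.66 in the RNA labelled G2KO. Both RNAs of the G1KO pair stood there at 10.24. At each of the 5 probes the WT of the G2KO pair was the lowest RNA and the RNA labelled G2KO the highest. The Mastl targets differed less in the RNA labelled G2KO, with 0.02 ± 0.13 at the brightest Arpp19 probe and -0.13 ± 0.07 at the brightest Ensa probe. Cip2a and Set, other inhibitors of PP2A, gave 0.53 to 0.62 and 0.28 to 0.37 in the RNA labelled G2KO, and 0.28 to 0.34 and 0.19 to 0.47 in G1KO.

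Partners of PP2A in the STRIPAK complex and the shugoshins, which hold PP2A with B′ subunits at the centromere, had 0 probes past 2-fold of 17 in G1KO and of 18 for the RNA labelled G2KO. Their medians were -0.01 and 0.08. Of the 18, 4 were higher by 1.5-fold in the RNA labelled G2KO, where 6.28% of all probes tested were. They were Sgol1 (0.63 ± 0.03), Sgol2 at both probes (0.83 ± 0.12 and 0.91 ± 0.09) and Fgfr1op2 at its brighter probe (0.88 ± 0.02). The other Fgfr1op2 probe gave -0.37 ± 0.03. At the brighter Sgol2 probe the WT of the G2KO pair was the low sample, at 10.68. The WT of the G1KO pair stood there at 11.48, G1KO at 11.63 and the RNA labelled G2KO at 11.58. At the other Sgol2 probe the RNA labelled G2KO was the highest, at 10.77, and the WT RNAs stood at 10.04 and 9.95. In G1KO the brighter probe of Sike1, a STRIPAK component, was lower by 1.5-fold at -0.82 ± 0.06.

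The related catalytic subunits of other phosphatases (PP1, calcineurin, PP4, PP5 and PP6) gave medians of 0.20 in G1KO and 0.07 for the RNA labelled G2KO over 16 probes. None passed 2-fold in G1KO, and Ppp3ca, a calcineurin catalytic subunit, was lower in the RNA labelled G2KO at -1.20 ± 0.27. Its level was 12.65 in the WT of the G1KO pair, 12.54 in G1KO, 13.55 in the WT of the G2KO pair and 12.35 in the RNA labelled G2KO. The WT of the G2KO pair was thus the high sample. Ppp3cb, its isoform, gave 0.38 to 0.70 at 4 probes in G1KO, of which 2 passed 1.5-fold.

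**Figure D4:**
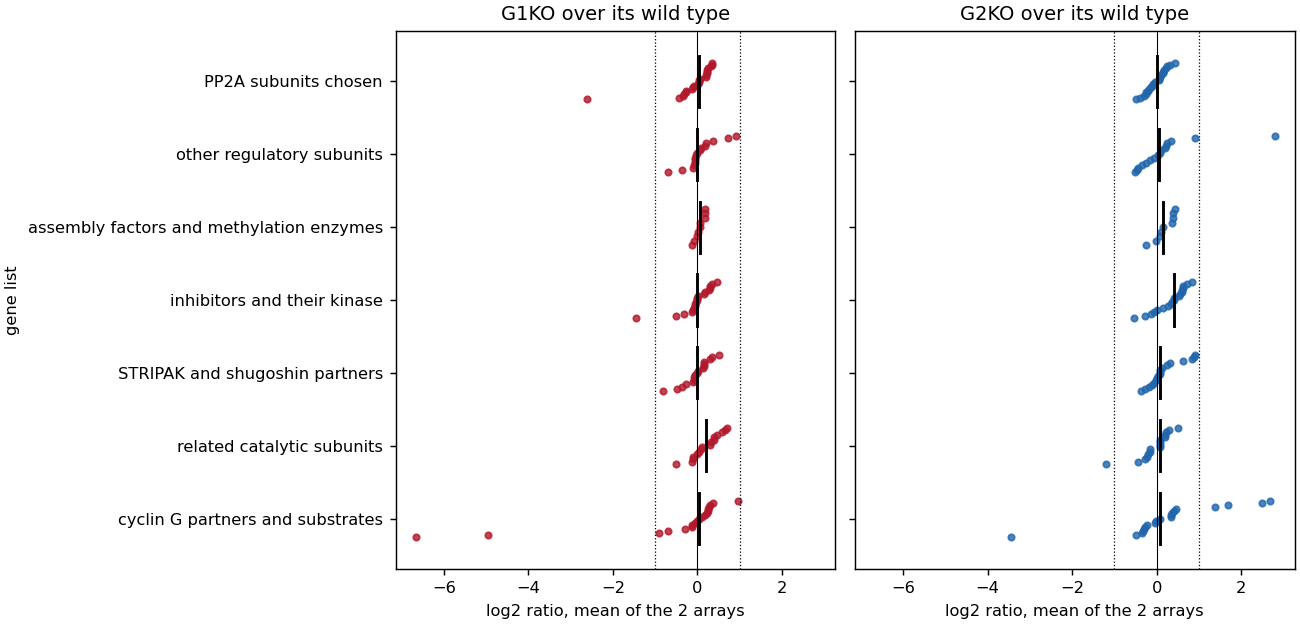
Mean log2 ratio of knockout over WT for each tested probe of the 10 PP2A subunit genes and of 6 lists of related genes. Points are probes, thick bars list medians, and dotted lines mark 2-fold. The median of the inhibitors is -0.00 in G1KO and 0.40 for the RNA labelled G2KO, and the points furthest from 0 are those of Ccng1, Ppp2r5b, Anp32a, Ppp2r2b, Ppp3ca, Mdm2 and Cdkn2a.

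Partners and substrates of the cyclin G complexes were read by 19 probes. In G1KO 2 were lower by 2-fold, those of Ccng1 itself. In the RNA labelled G2KO 4 were higher, the 2 of Ccng1 (2.67 ± 0.03 and 2.49 ± 0.04) and the 2 of Mdm2 (1.69 ± 0.02 and 1.38 ± 0.14), and 1 was lower, that of Cdkn2a (-3.44 ± 0.32). The WT of the G2KO pair had the lowest level of the RNAs for Mdm2 and the highest for Cdkn2a. For Ccng1 it was the lowest apart from G1KO, where this gene was targeted and the brighter probe stood at 7.00. The brighter Ccng1 probe stood at 13.67 in the WT of the G1KO pair, 11.14 in the WT of the G2KO pair and 13.81 in the RNA labelled G2KO. Mdm2 at its brighter probe stood at 13.14, 11.29 and 12.98 in these RNAs and at 12.22 in G1KO. Cdkn2a, a cell cycle inhibitor, stood at 9.74, 13.07 and 9.63 in them and at 10.70 in G1KO, where it was higher than WT by 0.96 ± 0.00 and passed 1.5-fold. Mdm2, the p53 ubiquitin ligase that PP2A with cyclin G dephosphorylates, was lower in G1KO at 1.5-fold, with -0.92 ± 0.13 and -0.70 ± 0.07. The brightest probes of Chek2 and H2ax, a kinase and a histone of the DNA damage response, did not pass 1.5-fold in either comparison. Chek2 gave -0.30 ± 0.21 in G1KO and -0.05 ± 0.35 for the RNA labelled G2KO, and H2ax 0.37 ± 0.38 and 0.33 ± 0.39.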

How the data were processed

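Per the labels, oligo-dT priming turned total RNA of each culture into cRNA carrying Cy5 or Cy3, which was hybridised to Agilent whole mouse genome arrays. The authors quantified 45018 spots per array with Agilent Feature Extraction. Its version is 10.5.1.1 per the file headers and 9.1 per the submitters' processing notes. The deposited scanner files hold the intensity of each spot and of its surroundings on a linear scale, neither background-subtracted nor normalised, and the scanner's log10 ratio of Cy5 over Cy3 after its own subtraction and dye normalisation. The authors' deposited series table holds the same log10 ratio, turned to knockout over WT.

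Processing used limma 3.58.1 under R 4.3.3. Background was corrected by normexp with an offset of 50, control spots and outlier spots (114 to 203 per array) were left out, each array was normalised by loess, and spots of a probe were averaged. Levels per channel were made comparable between arrays by Aquantile normalisation. Both arrays of a comparison were averaged to give its log2 ratio of knockout over WT. A probe was tested where it was well above background on both arrays in at least 1 genotype, leaving 25541 probes for G1KO and 25430 for G2KO. The SD between arrays, pooled over these probes, was 0.131 and 0.129. Between 25366 and 27757 of 43379 gene spots were well above background per channel, and none was saturated. The 4 arrays shared 1 slide and 1 scan. The number of arrays limits the precision.

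Every probe of the 10 genes is reported, and the main probe of a gene is its brightest. The other genes are those of the lists past 2-fold (up to 10 per comparison), Ccng1, Ccng2, Mdm2, Chek2 and H2ax, and for the member with the largest main-probe ratio in each comparison the 3 genes nearest by Euclidean distance over the 4 array ratios. The other genes of the lists that are named, the neighbours of Ppp2r5b and the Ppp2r2b levels were chosen after their values were seen. A gene not well above background in 1 genotype has only a bound, which sets the brighter mean against the dim signal, or the lowest signal well above background where that is higher, and which is open to dye bias. The members and lists were chosen with earlier results of these data known. The scripts were tested on simulated data. Probe names are those of the array, checked against RefSeq names, and the exon or UTR of each probe was not analysed here. Motifs were searched in the RefSeq promoters of build GRCm38.p6, whose coordinates differ from those of the array (mm8).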

Additional observations from a re-analysis of the deposited data

Results flagged for a closer look

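Of the 22 probes of PP2A subunits, 4 had one sign on each array of the G1KO comparison and the other sign on each array of the G2KO comparison. The differences given are the G1KO log2 ratio minus that of the RNA labelled G2KO, and none of them was tested. At Ppp2ca the probe at 51964368 differed by 0.43 (0.23 ± 0.25 against -0.20 ± 0.27) and the probe at 51965821 by 0.40 (0.23 ± 0.10 against -0.17 ± 0.11). At Ppp2r1b the probe at 50632825 differed by 0.64 (0.34 ± 0.17 against -0.30 ± 0.16) and the probe at 50643941 by -0.23 (-0.08 ± 0.08 against 0.16 ± 0.07). The share of such probes was 18.2% among the PP2A subunits and 35.8% among all probes tested in both comparisons.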

How the results depend on the processing

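Under every alternative that kept the pairs as designed, Ppp2r5b was lower in G1KO by 2-fold on each array used, with a mean log2 ratio of -2.58 to -2.63 (-2.81 and -2.43 when either array was left out). The count of PP2A probes past 2-fold stayed at 1 in G1KO and 0 for the RNA labelled G2KO. At 1.5-fold the count in the latter was 0 to 1 on a single array. The alternatives were an offset of 10, no background correction, median centring, the scanner's ratio, the series table, both genotypes above background, no filter on dim probes and outlier spots kept. Against the WT of the other pair, chosen after seeing the data, the Ppp2r5b value was -0.30 in G1KO and -2.19 for the RNA labelled G2KO, with 0 and 1 probes past 2-fold and 1 and 1 past 1.5-fold. The median of the PP2A probes in G1KO went from 0.03 to 0.19 with the scanner's ratio or the series table. That in the RNA labelled G2KO went from -0.00 to -0.03 with an offset of 10, to 0.00 without background correction and with the scanner's ratio or the series table, to 0.07 with median centring and to 0.05 with both genotypes above background, and was -0.05 to -0.04 on single arrays. The median over genes in G1KO was 0.22 at the main probe and 0.10 as the mean over probes. Over all probes, 1479 and 1619 were past 2-fold, against 813 and 955 with median centring, 2855 and 3396 with the scanner's ratio and 2849 and 3392 with the series table. The Ppp2r5b difference between the WT RNAs was -2.32, and -2.30 with quantile normalisation of all channels. Of the other 21 PP2A probes, 1 changed sign under these 8 alternatives, the brighter Ppp2cb probe in the RNA labelled G2KO (-0.09, and 0.02 with median centring). On single arrays 5 of the 21 had opposite signs in G1KO and 3 did for the RNA labelled G2KO. With the scanner's ratio or the series table the probes that moved beyond their spread were dim, with Ppp2r1b at 50619968 reaching 0.37 in G1KO and 0.65 for the RNA labelled G2KO (0.36 there with an offset of 10), Ppp2r1b at 50643941 0.42 in the RNA labelled G2KO, and Ppp2r5e at 76369389 0.38 and Ppp2r5a at 193059601 -0.43 in G1KO. The cause of these shifts was not tested. No paired analysis was possible because each genotype had 1 RNA sample and the numbers mark arrays of a dye swap. The number of arrays limits every value, and signal near background limits those of the dim probes.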
